A study of Mus musculus with 10 samples.

Results

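The genes described here are 10 members of the ephrin and Eph receptor family, 4 ephrin ligands (Efna1, Efna5, Efnb1 and Efnb2) and 6 Eph receptors (Epha2, Epha4, Ephb1, Ephb2, Ephb3 and Ephb4), out of 55385 genes listed in each file. They were taken by name, after the Ensembl identifiers of the files had been matched to mouse symbols. Expression was measured by RNA sequencing of liver endothelial cells from mice, in 5 libraries labelled Alk1-HEC-KO (genotype given as KO) and 5 control libraries (genotype given as WT). The endothelial cells had been enriched from the liver's cells other than hepatocytes with magnetic beads against CD146, the product of Mcam, after a Nycodenz gradient. Alk1 is an alias of Acvrl1, which encodes an endothelial receptor for BMP9 and BMP10. The sources used here do not give the promoter that drove any recombinase, the deleted exons, or the strain, sex and age of the mice, and leave unstated whether every library stands for a separate animal. The p-values therefore measure the spread between these libraries, which may be technical.

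Ephrins are ligands that stay attached to the cell that makes them, so they signal to Eph receptors on a touching neighbour. Ephrins of the A class are held by a lipid anchor and mostly bind EphA receptors, while those of the B class span the membrane and mostly bind EphB receptors. The receptor, a tyrosine kinase, sends a forward signal into its own cell, and the ephrin can send a reverse signal into the other. In blood vessels ephrin-B2 is a classical marker of arterial and EphB4 of venous endothelium, and their contact keeps arterial and venous cells apart.

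The libraries held 23489494 to 23602771 estimated counts, so 1 count was worth about 0.0425 CPM (counts scaled to a common library size, with TMM factors). Acvrl1, the targeted gene, went against its label: it was at 239 to 258 CPM in the Alk1-HEC-KO libraries and at 114 to 136 CPM in controls, a rise (log2 fold change 0.96 ± 0.05 SE, edgeR adjusted p = 1.7e-07). Counts per gene cannot tell which exons the reads came from. The libraries are therefore called knockout-labelled, and a rise or a fall is always theirs relative to controls. Mcam, whose product was used to capture the cells, also rose, from 330.1 to 540.7 CPM (log2 fold change 0.71 ± 0.09 SE, edgeR adjusted p = 0.00011). Of 8 pan-endothelial genes 75% passed at an edgeR adjusted p under 0.05, against 19.7% of all genes tested. Of the 8 genes 4 rose (Pecam1, Tie1, Emcn and Mcam), 2 fell (Kdr and Tek) and 2 did not pass. Their means ran from 159.2 (Erg) to 3603 CPM (Kdr) in controls and from 173 to 2865 CPM, for the same genes, in knockout-labelled libraries. Pecam1 was at 1320 to 1560 CPM in controls against 1630 to 1800 CPM. The sinusoidal gene Stab2, not one of the 8, was at 2340 to 2950 against 1960 to 2330 CPM. Among the controls, libraries 4 and 5 lay at the ends of the first principal component, at -54.4 and -13.6, and control 4 had the highest mitochondrial share of counts, 6.43% against 3.45 to 4.74% elsewhere. Results were also computed without those 2 libraries.

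The B-class ephrins Efnb1 and Efnb2, the A-class ephrin Efna1 and the receptor Ephb1 rose in the knockout-labelled libraries, and the receptor Epha4 fell. Ephb1 rose 22-fold and the 3 ephrins by less than 2-fold. Ephb4, the most abundant of the receptors, did not pass the test. Of all 10 genes 4 rose, 1 fell, 3 did not pass (Efna5, Epha2 and Ephb4) and 2 were too low to be tested (Ephb2 and Ephb3). Across the 15043 genes tested, 19.7% were called at an edgeR adjusted p under 0.05, with 10.6% higher and 9.08% lower. Of the 8 tested genes of the family 62.5% were called, and their median log2 fold change was 0.46, against 0.0001 over all genes tested. These 10 genes were chosen with results of these data known, and Ephb1 passed the filter on low counts through the knockout-labelled libraries, so neither number is support for a family-wide change. The split over all genes was 1593 higher and 1366 lower, 1968 and 1024 with scaling by library size alone, and 1819 and 664 with limma on log2(TPM + 1), where TPM is the deposited length-corrected unit. Of all genes tested 8.4% had every knockout-labelled library above every control, as Efnb1, Efnb2 and Ephb1 did, and 7.05% had every one below, as none of the 10 genes did. Groups without overlap in either direction made up 15.4%. In bulk RNA, more or fewer cells of a type and more or less RNA per cell cannot be told apart.

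**Figure D1:**
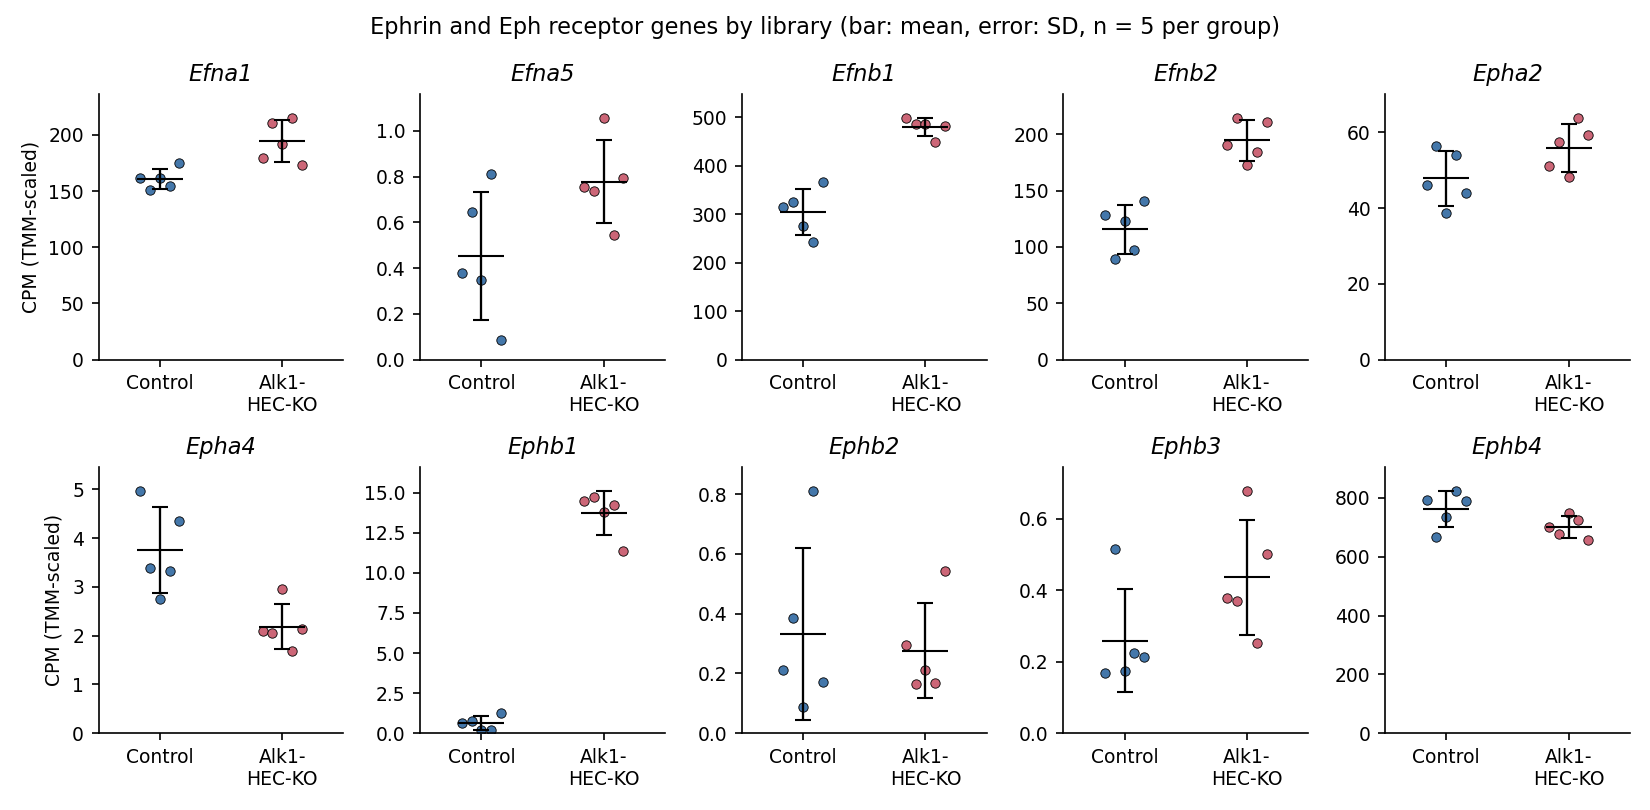
Expression of the 10 genes in CPM (y axis, from 0, own scale per gene) in each of the 5 control and 5 knockout-labelled libraries (x axis), with 1 point per library, the mean as a horizontal line and the SD as error. Efnb1, Efnb2 and Ephb1 show no overlap between the groups, while the points of Ephb4, Epha2 and Efna1 overlap.

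The 250 bases upstream of the RefSeq start of 4 of these genes are printed here because the 3 that rose without overlap and the abundant receptor that did not pass can thus be compared in base composition and short motifs. They are RefSeq sequences on GRCm38.p6, written 5′ to 3′ on the strand of the gene. Capitals mark matches on either strand to TGGGAA, the core letters of the Notch effector RBPJ, to GGCGCC, a GC-rich element bound by BMP-activated SMADs, and to CCGGAA, the ETS core. GGCGCC is its own reverse complement and was counted once, and no 2 matches overlap in these windows. For Efnb1 this start lies upstream of the GENCODE gene start given with its values, and its positions are counted from the RefSeq start. The strand is minus for Ephb1 and Efnb2 and plus for Efnb1 and Ephb4.
Ephb1, chr9:102354694-102354943: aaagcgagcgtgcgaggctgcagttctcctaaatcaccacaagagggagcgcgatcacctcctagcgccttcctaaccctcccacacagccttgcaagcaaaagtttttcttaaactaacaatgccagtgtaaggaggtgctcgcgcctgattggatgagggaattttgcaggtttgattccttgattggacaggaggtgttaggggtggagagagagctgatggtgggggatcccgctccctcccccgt
Efnb2, chr8:8661243-8661492: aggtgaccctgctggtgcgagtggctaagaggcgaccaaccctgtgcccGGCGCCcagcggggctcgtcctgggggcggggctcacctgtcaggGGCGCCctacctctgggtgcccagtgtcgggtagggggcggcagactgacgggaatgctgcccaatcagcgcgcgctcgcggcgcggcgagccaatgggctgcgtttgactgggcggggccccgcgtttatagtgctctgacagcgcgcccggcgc
Efnb1, chrX:99135811-99136060: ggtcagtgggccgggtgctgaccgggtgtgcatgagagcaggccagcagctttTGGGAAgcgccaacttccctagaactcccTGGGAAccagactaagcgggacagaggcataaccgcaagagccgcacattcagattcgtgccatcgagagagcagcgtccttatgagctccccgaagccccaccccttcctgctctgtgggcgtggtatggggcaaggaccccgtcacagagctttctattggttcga
Ephb4, chr5:137349859-137350108: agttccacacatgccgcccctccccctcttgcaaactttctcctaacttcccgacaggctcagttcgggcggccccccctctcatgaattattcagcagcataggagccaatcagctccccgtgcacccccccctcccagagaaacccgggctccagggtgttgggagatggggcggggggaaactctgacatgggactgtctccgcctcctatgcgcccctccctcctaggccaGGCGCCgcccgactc
The Ephb1 window held none of the 3 motifs and had a G and C content of 54%. That of Efnb2 held GGCGCC at 2 places, starting 201 and 156 bases before the start, and 72% G and C. That of Efnb1 held TGGGAA at 2 places, 197 and 168 bases before the start, with 60% G and C. The Ephb4 window held GGCGCC once, 15 bases before the start, with 64% G and C. Of all 32851 windows of this length 21.6% held TGGGAA, 9.59% GGCGCC and 12% CCGGAA, and the median G and C content was 52.4%. A match describes letters only, and no binding was measured here.

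Efnb1 encodes ephrin-B1, a transmembrane ligand of EphB receptors, and lies on chromosome X (GRCm38, 99136130 to 99148991, plus strand; ENSMUSG00000031217.8). Its level in controls 1 to 5 was 315.1, 326.1, 275.4, 242.4 and 366.6 CPM. In knockout-labelled libraries 1 to 5 it was 499.2, 486.3, 486, 448.9 and 482.6 CPM. All 5 knockout-labelled libraries lay above the highest control, and control 4 was the lowest of all. Controls averaged 305.1 ± 47.8 CPM and knockout-labelled libraries 480.6 ± 18.8 CPM (SD, n = 5 each), a 1.58-fold rise (log2 fold change 0.66 ± 0.09 SE, 95% interval 0.45 to 0.86, edgeR adjusted p = 0.00035).

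Efnb2 encodes ephrin-B2, the arterial ligand of EphB4, and lies on chromosome 8 (GRCm38, 8617434 to 8661242, minus strand; ENSMUSG00000001300.16). It was at 128.3, 89.29, 123.4, 97.1 and 140.6 CPM in controls 1 to 5. The knockout-labelled libraries 1 to 5 held 190.8, 214.6, 172.6, 183.8 and 210.4 CPM. The groups did not overlap, and controls 2 and 4 were the lowest of the 10. Controls averaged 115.7 ± 21.7 CPM and knockout-labelled libraries 194.4 ± 17.8 CPM (SD, n = 5 each), a 1.68-fold rise (log2 fold change 0.75 ± 0.12 SE, 95% interval 0.48 to 1.01, edgeR adjusted p = 0.0012). The exact two-sided permutation p of Efnb1, Efnb2 and Ephb1 was 0.0079 each, the smallest that the 252 assignments of 5 against 5 allow. Groups without overlap always reach that value, so it adds nothing to the lack of overlap.

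The ratio of the 2 B-class ephrins differed by less than the spread between libraries. On the log2 scale of TPM, Efnb1 exceeded Efnb2 by 1.98 ± 0.27 in controls and 1.87 ± 0.14 in knockout-labelled libraries (SD, n = 5 each), and the ranges overlapped. Efnb1 made up 79.5% ± 2.85 of the summed ephrin-B TPM in controls and 78.4% ± 1.58 in knockout-labelled libraries (SD, n = 5 each).

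Efna1 encodes ephrin-A1, the main A-class ligand of endothelium, first described as a gene induced by tumour necrosis factor. The gene lies on chromosome 3 (GRCm38, 89271733 to 89281142, minus strand; ENSMUSG00000027954.9). It was at 161.7, 150.6, 161.4, 154.7 and 174.8 CPM in controls 1 to 5 and at 179.8, 211.1, 192, 215.4 and 173.3 CPM in knockout-labelled libraries 1 to 5. Knockout-labelled library 5 lay just below control 5, so the groups overlapped. The rise was 1.21-fold (log2 fold change 0.27 ± 0.07 SE, 95% interval 0.12 to 0.42, edgeR adjusted p = 0.014).

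Efna5 encodes ephrin-A5, known best as a repulsive cue for growing axons. It was near the limit of detection, with 2 to 18 counts per control library and 13 to 25 per knockout-labelled library. Its means were 0.453 ± 0.281 and 0.779 ± 0.183 CPM (SD, n = 5 each), and the groups overlapped. The difference did not pass (log2 fold change 0.78 ± 0.4 SE, 95% interval -0.10 to 1.66, edgeR adjusted p = 0.21).

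Ephb1, a receptor for B-class ephrins, had the largest difference of the 13 family genes tested. The gene lies on chromosome 9 (GRCm38, 101922128 to 102354693, minus strand; ENSMUSG00000032537.15). Controls 1 to 5 held 15, 17, 5, 5 and 30 estimated counts, and knockout-labelled libraries 1 to 5 held 346, 358, 327, 339 and 272. In CPM these were 0.631, 0.729, 0.218, 0.225 and 1.28 against 14.5, 14.7, 13.8, 14.2 and 11.4. Every knockout-labelled library was far above the highest control, and control 5 was the highest of the controls. Controls averaged 0.617 ± 0.438 CPM and knockout-labelled libraries 13.7 ± 1.36 CPM (SD, n = 5 each), a 22-fold rise (log2 fold change 4.46 ± 0.36 SE, 95% interval 3.66 to 5.26, edgeR adjusted p = 1.2e-05). By size of rise Ephb1 stood 25th among the 15043 genes tested, and 1.52% of those genes were called with a change of at least 4-fold in either direction. The control mean rests on 72 counts in all, so the size of the fold is less certain than its direction. On the log2(TPM + 1) scale, which understates changes of low genes, the difference was 2.38 (limma adjusted p = 6.7e-08). The annotated antisense gene Gm26846 shares exon bases with Ephb1. It was not analysed here, and whether counting used strand is not given in the sources used here, so reads of the 2 genes cannot be told apart.

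Ephb4 encodes the venous receptor of ephrin-B2 and was the most abundant member in both groups. It lies on chromosome 5 (GRCm38, 137350109 to 137378669, plus strand; ENSMUSG00000029710.15). Controls 1 to 5 were at 794, 668.9, 733.9, 823 and 788.6 CPM, and knockout-labelled libraries 1 to 5 at 701.5, 677.8, 749.6, 724.2 and 656.6 CPM. Controls 1, 4 and 5 lay above all knockout-labelled libraries, and controls 2 and 3 lay among them, so the groups overlapped. Controls averaged 761.7 ± 61.1 CPM, knockout-labelled libraries 701.9 ± 36.8 CPM (SD, n = 5 each; log2 fold change -0.12 ± 0.06 SE, adjusted p = 0.24 in edgeR). The 95% interval of the difference ran from -0.26 to 0.02 on the log2 scale. The antisense gene Zan shares exon bases with Ephb4 and held 144 counts over the 10 libraries, against 171917 of Ephb4.

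Ephb2 and Ephb3, receptors with known parts in vessel assembly, were at trace levels. Ephb2 had 2 to 18 counts per control library and 4 to 13 per knockout-labelled library, 38 and 33 in all. Ephb3 had 4 to 12 and 6 to 16 counts, 30 and 52 in all. Both were under the filter of the edgeR fit. In a fit without a filter the log2 fold changes were -0.27 (95% interval -1.29 to 0.76, edgeR adjusted p = 0.81) and 0.72 (95% interval -0.13 to 1.58, edgeR adjusted p = 0.39). A difference was not detectable at this depth for either gene.

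Epha2, a receptor of ephrin-A1 that takes part in vessel growth, was the leading A-class receptor. Its level ranged from 38.6 to 56.5 CPM with a mean of 47.9 ± 7.3 in controls, and from 48.1 to 63.8 CPM with a mean of 55.9 ± 6.33 in knockout-labelled libraries (SD, n = 5 each). The groups overlapped, and the difference did not pass (log2 fold change 0.23 ± 0.11 SE, 95% interval -0.01 to 0.46, edgeR adjusted p = 0.17).

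Epha4 was the only one of the 10 genes that fell. It encodes a receptor that binds ephrins of both classes and lies on chromosome 1 (GRCm38, 77367185 to 77515088, minus strand; ENSMUSG00000026235.14). Controls 1 to 5 held 118, 79, 63, 74 and 102 counts, and knockout-labelled libraries 1 to 5 held 50, 50, 70, 40 and 51. Controls averaged 3.76 ± 0.887 CPM and knockout-labelled libraries 2.19 ± 0.47 CPM (SD, n = 5 each), and knockout-labelled library 3 overlapped with control 3. The fall was 1.72-fold (log2 fold change -0.78 ± 0.2 SE, 95% interval -1.21 to -0.35, edgeR adjusted p = 0.015). The call ended with transcript length offsets (-0.72, adjusted p = 0.099), in the limma fits of log2(TPM + 1) and log2(TPM + 0.1) (-0.29 and -0.56, adjusted p = 0.19 and 0.2), and without controls 4 and 5 (-0.77, adjusted p = 0.064), within a range of 0.0033 to 0.2 over 21 alternatives.

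Among the other 12 genes of the family 1 rose, 4 did not pass and 7 were under the filter. Of the 5 tested 20% were called, near the 19.7% of all genes. Epha7, an ephrin-A receptor, was the one that rose, from 10 to 17 counts per control library to 24 to 31 per knockout-labelled library without overlap (log2 fold change 0.93 ± 0.22 SE, edgeR adjusted p = 0.01). That call ended with limma on log2(TPM + 1) (0.18, adjusted p = 0.062). Efna2 was at 0.387 ± 0.131 and 0.753 ± 0.256 CPM (SD, n = 5 each; adjusted p = 0.068 in edgeR), and was called without knockout-labelled library 1 (edgeR adjusted p = 0.021). Ephb6, a receptor without kinase activity, was at 2.15 ± 0.462 and 2.89 ± 0.32 CPM (SD, n = 5 each; adjusted p = 0.1 in edgeR). Epha1 and Efnb3 had edgeR adjusted p-values of 0.55 and 0.4. Efna3, Efna4, Epha3 and Epha5 had 6 to 46 counts per group in all. Epha8 and Epha10 had 1 count each over the 10 libraries. Epha6 had 0 counts in every library, which allows up to 3 counts or 0.135 CPM per library, for counting error only.

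**Figure D2:**
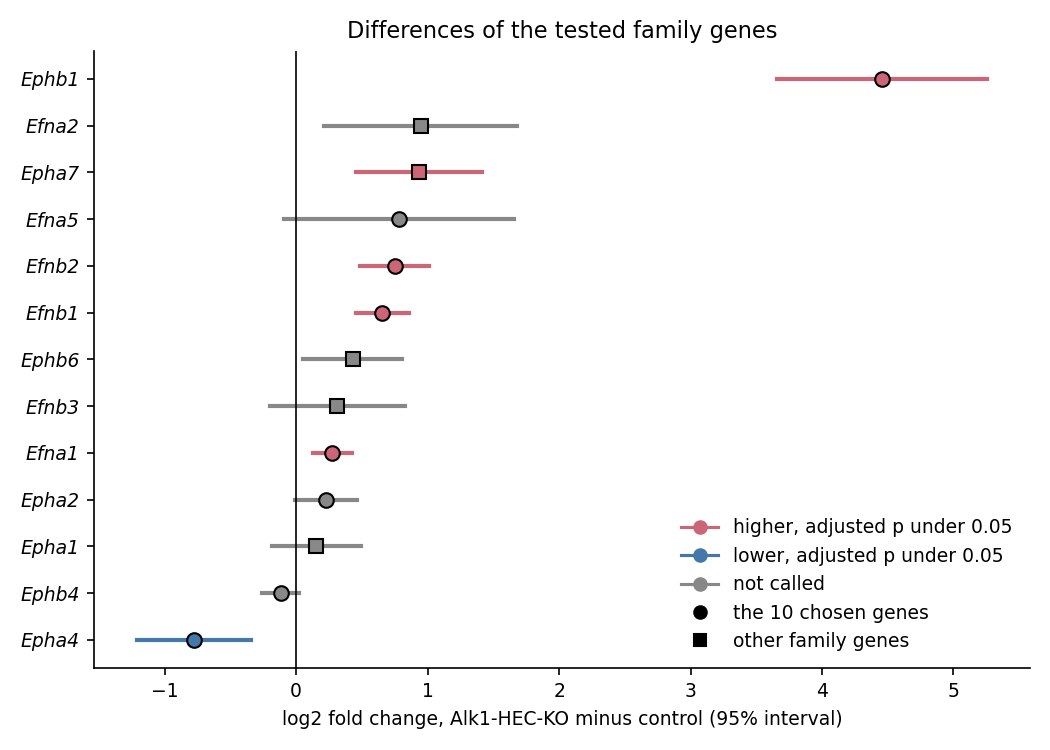
Log2 fold change with its 95% interval (x axis) for the 13 family genes that could be tested (y axis), circles for the 10 chosen genes and squares for the others, coloured by call. Ephb1 stands at 4.46, the called ephrins between 0.27 and 0.75, and Epha4 alone is called below 0, at -0.78.

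Levels of different genes can be ordered only per length, so the deposited TPM were used for that. In controls the order was Ephb4 (282 ± 27.7 TPM), Efna1 (191 ± 19.8), Efnb1 (154 ± 32.7), Efnb2 (39.1 ± 8.84), Epha2 (20.2 ± 3.06) and Epha4 (1.12 ± 0.424, SD, n = 5 each). Ephb1, Efna5, Ephb3 and Ephb2 followed at 0.311, 0.228, 0.214 and 0.211 TPM. The ranges of Efna1 and Efnb1 overlapped, although Efna1 was the higher of the pair in all 5 controls, and the last 4 genes could not be ordered beyond their spread. In knockout-labelled libraries Ephb4 was again first (278 ± 9.83 TPM), followed by Efnb1 (258 ± 14.5), Efna1 (246 ± 21.2), Efnb2 (70.9 ± 8.58), Epha2 (25.3 ± 3.07) and Ephb1 (5.78 ± 0.705, SD, n = 5 each). There Efnb1 and Efna1 overlapped, Efnb1 being higher in 3 of 5 libraries, while Ephb4 still lay above Efnb1 in all 5. Ephb1 thus lay among the trace genes in controls, and between Epha2 and Epha4 (0.72 ± 0.247 TPM, SD, n = 5) in knockout-labelled libraries.

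**Figure D3:**
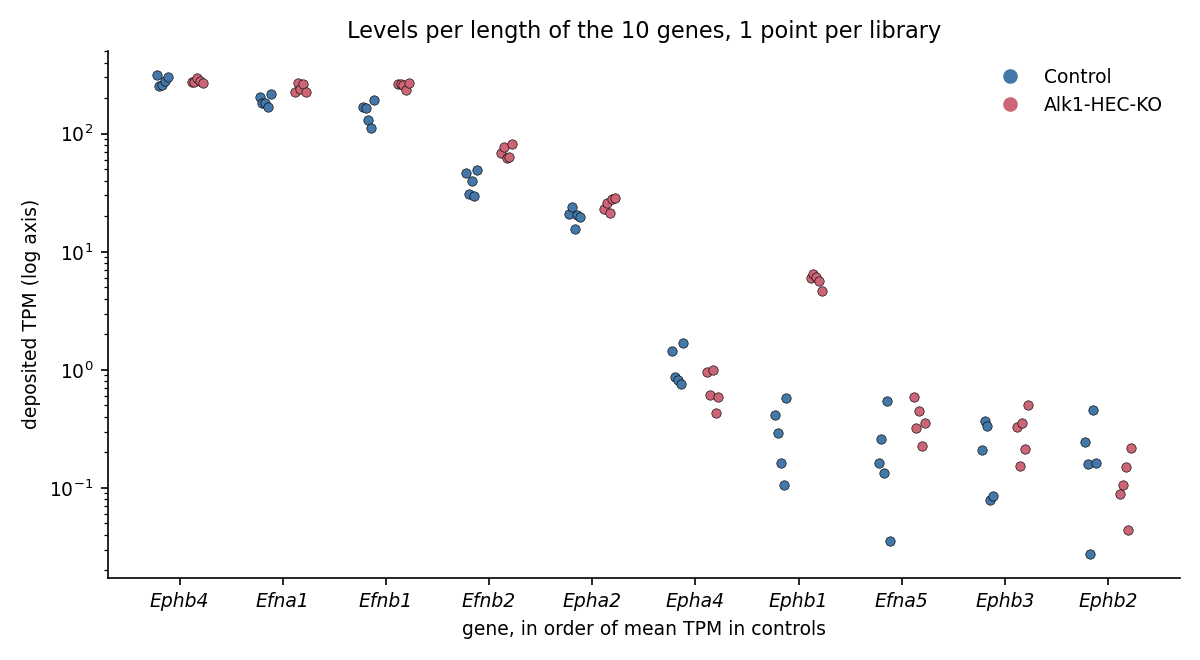
Deposited TPM on a log axis (y axis) of the 10 genes (x axis, ordered by the control mean), with 1 point for each of 5 control and 5 knockout-labelled libraries. Ephb1 lies among the trace genes in controls, at 0.107 to 0.578 TPM, and at 4.66 to 6.5 TPM in knockout-labelled libraries.

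Summed levels of ligands and receptors are given as a description without a test. Over the 3 ephrin-B genes the summed level was 194 ± 39.2 TPM in controls and 329 ± 21.2 TPM in knockout-labelled libraries, with no overlap. Over the 5 EphB genes it was 284 ± 28 and 286 ± 9.8 TPM, with overlap (SD, n = 5 each). The ephrin-B sum was thus 0.681 ± 0.115 of the receptor sum in controls and 1.16 ± 0.0985 in knockout-labelled libraries. In every control it was under 1, from 0.501 to 0.787, and in every knockout-labelled library over 1, from 1.04 to 1.26.

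The log2 TPM ratio of Efnb2 to Ephb4, the arterial ligand to its venous receptor, was -2.77, -3.03, -2.7, -3.24 and -2.63 in controls 1 to 5. It was -1.99, -1.8, -2.24, -2.12 and -1.72 in knockout-labelled libraries 1 to 5. The groups did not overlap, and Ephb4 stayed above Efnb2 in all 10 libraries. For Efnb1 to Ephb4 the mean log2 ratio was -0.89 ± 0.29 in controls and -0.11 ± 0.11 in knockout-labelled libraries (SD, n = 5 each). Despite its rise, Ephb1 made up 2.02% ± 0.231 of the EphB TPM in knockout-labelled libraries, against 0.107% ± 0.0591 in controls (SD, n = 5 each). Ephb4 held 99.3% ± 0.206 of it in controls and 97.2% ± 0.232 in knockout-labelled libraries.

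In the A class the summed ephrin level was 191 ± 20 TPM in controls and 247 ± 21 TPM in knockout-labelled libraries, of which Efna1 made up over 99% in each library. The groups did not overlap on this scale, the lowest knockout-labelled library being at 226 and the highest control at 217 TPM, while Efna1 itself overlapped in CPM. Over all genes tested the median log2 fold change was 0.08 with limma on log2(TPM + 1), against 0.0001 in edgeR. Whether the gap goes beyond that shift was not tested. The EphA receptor sum was 22.6 ± 3.23 and 27.9 ± 2.68 TPM (SD, n = 5 each), and Epha2 held 86 to 93.6% of it. The ephrin-A sum was 8.59 ± 1.44 and 8.93 ± 0.942 times the receptor sum, and these ratios overlapped.

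**Figure D4:**
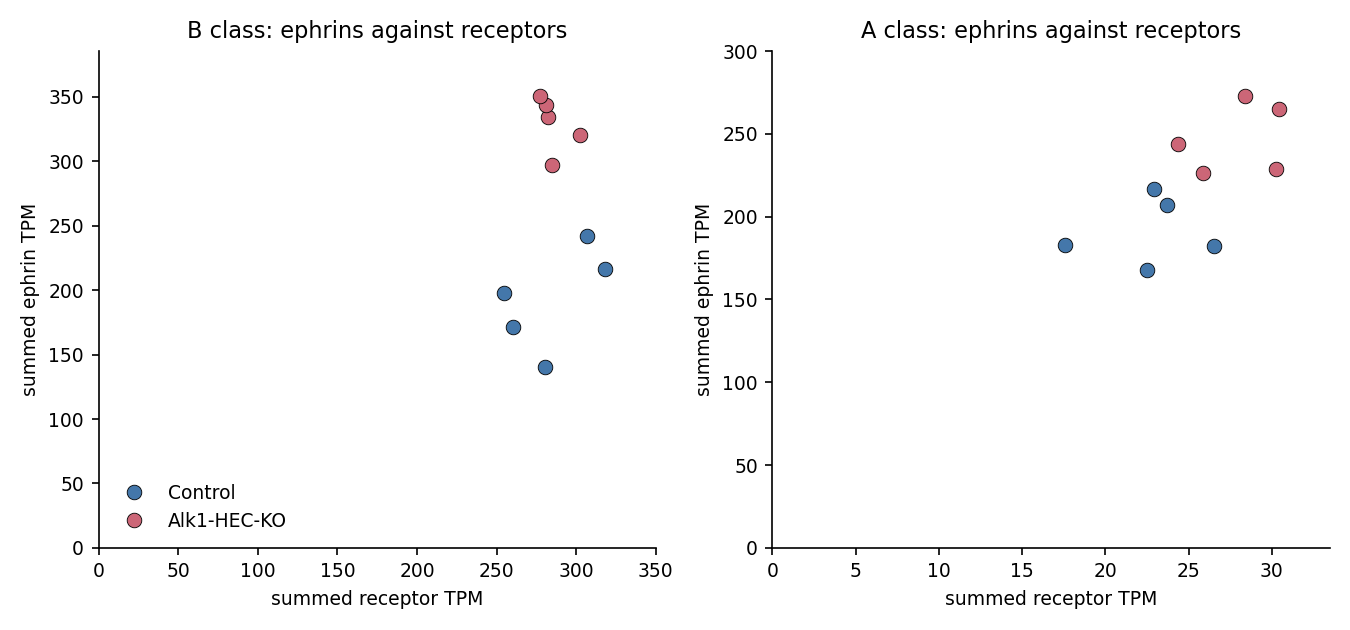
Summed ephrin TPM (y axis) against summed receptor TPM (x axis) for the B class (left) and the A class (right), with 1 point per library and both axes from 0. In the B class the knockout-labelled libraries lie above the controls, at 297 to 351 against 141 to 242 ephrin TPM, at like receptor sums.

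Genes that carry the forward signal of Eph receptors changed in both directions. Of 32 listed genes, all tested, 8 rose, 3 fell and 21 did not pass, 34.4% called against 19.7% of all genes, with a median log2 fold change of 0.06 against 0.0001. Chn2, a Rac GTPase-activating protein of the chimaerin family, fell 2.83-fold from 15.1 ± 2.7 to 5.32 ± 0.976 CPM (SD, n = 5 each; adjusted p = 1.9e-05 in edgeR). Arhgef16, an exchange factor of the ephexin family, rose 2.45-fold from 1.02 ± 0.146 to 2.5 ± 0.338 CPM (SD, n = 5 each; adjusted p = 0.00019 in edgeR). The adaptors Grb10 and Nck2 rose 1.56-fold and 1.84-fold (edgeR adjusted p = 6.1e-05 and 0.00064). The groups did not overlap for any of the 4. Without controls 4 and 5 the number of called genes of this list was 7 and not 11.

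Arhgef15, the ephexin of endothelium, averaged 439.6 CPM in controls against 451 CPM (edgeR adjusted p = 0.69). Rasa1, a Ras inhibitor that acts downstream of EphB4, averaged 94 against 104 CPM (edgeR adjusted p = 0.15). Rhoa, Rac1 and Cdc42, the GTPases on which the pathway converges, had log2 fold changes of 0.09, -0.07 and -0.05 and did not pass (edgeR adjusted p = 0.21, 0.37 and 0.48). With limma on log2(TPM + 1) Rhoa was called (0.19, adjusted p = 0.036), and Rac1 and Cdc42 were at 0.05 each, with the opposite sign. These 5 were named after their values were seen.

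For partners of the reverse signal the share of calls was near that of all genes. Of 14 reverse signalling genes 1 rose, 1 fell, 11 did not pass and 1 was not tested, 15.4% of those tested against 19.7% of all genes. Git1, an adaptor of focal adhesions, rose 1.26-fold from 184 ± 9.99 to 233 ± 19.9 CPM (SD, n = 5 each; adjusted p = 0.0028 in edgeR). Dab2, an endocytic adaptor, fell 1.23-fold (edgeR adjusted p = 0.016), a call lost with transcript length offsets (adjusted p = 0.078) and in the limma fits of log2(TPM + 1) and log2(TPM + 0.1) (adjusted p = 0.42 and 0.41). Of 12 genes for shedding and turnover of the proteins 1 rose, 10 did not pass and 1 was not tested, 9.09% of those tested against the same 19.7%. The one that rose was Adam10, a protease known to cleave ephrins and Eph receptors at cell contacts, from 277 ± 15.8 to 382 ± 15.6 CPM without overlap (SD, n = 5 each; 1.38-fold, adjusted p = 6.1e-05 in edgeR). The median log2 fold changes of the reverse signalling and the shedding list were 0.02 and 0.03.

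**Figure D5:**
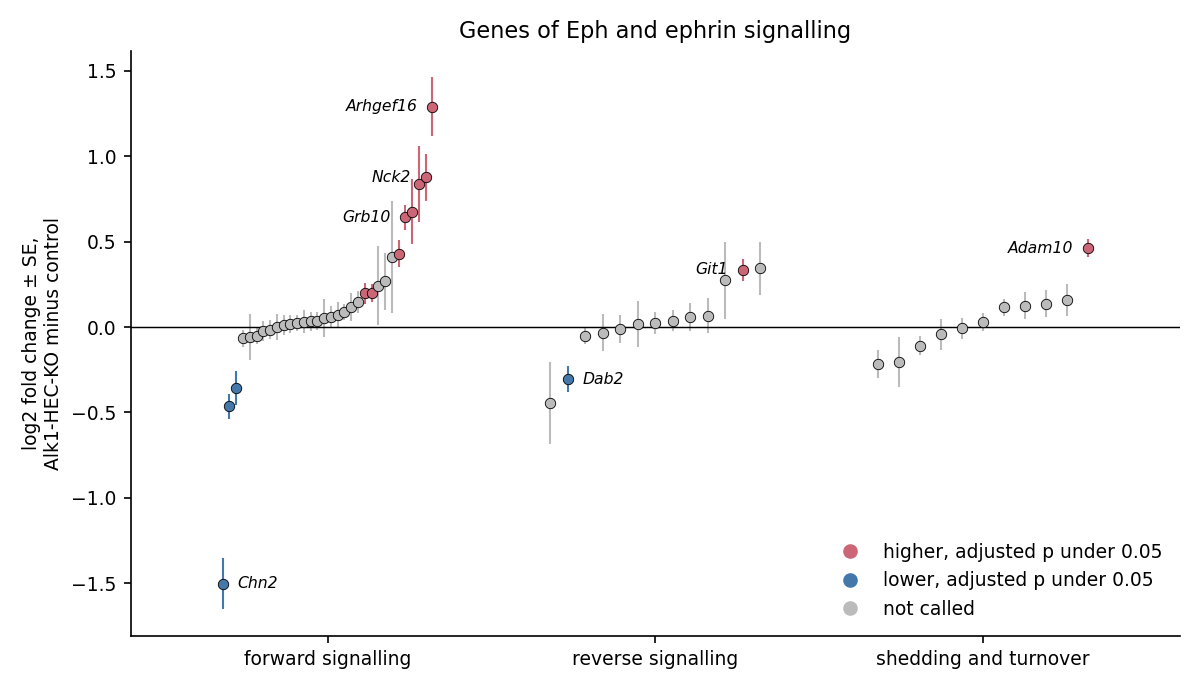
Log2 fold change with its SE (y axis) for the tested genes of the forward signalling, reverse signalling and shedding lists (x axis, each sorted by value), coloured by call, with the genes described in the text named. Most points lie near 0, with Chn2 at -1.50 and Arhgef16 at 1.29 at the ends.

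Arterial and venous genes give the setting of Efnb2 and Ephb4. Of 14 arterial genes 6 rose, 1 fell, 6 did not pass and 1 was not tested, 53.8% of those tested against 19.7% of all genes. The 6 that rose include Acvrl1, the targeted gene, so its rise says nothing of arterial identity here. Sema3g (6.14-fold), the chemokine receptor Cxcr4 (4.93-fold) and the netrin receptor Unc5b (3.6-fold) rose. The connexin Gja5 (1.67-fold) and the Notch ligand Dll4 (1.41-fold) rose as well. The kinase gene Bmx fell 1.6-fold, and the edgeR adjusted p of these 7 ranged from 1e-07 for Unc5b to 0.013 for Dll4. The call of Dll4 was lost with no filter (adjusted p = 0.051). Of 11 venous genes 1 rose, 6 fell and 4 did not pass, 63.6% called. The apelin receptor gene Aplnr rose 9.57-fold (edgeR adjusted p = 0.00031). The Wnt pathway genes Rspo3, Wnt9b and Wnt2, known from the endothelium of central veins, fell 35.2-fold, 13.6-fold and 3.82-fold (edgeR adjusted p = 3.6e-08, 9e-06 and 0.00018). Selp, an adhesion molecule, and Cdh13, a cadherin, fell 10-fold and 5.75-fold, and Nr2f2, a transcription factor of venous identity, fell 1.23-fold (edgeR adjusted p = 0.00034, 1.9e-07 and 0.026). The Nr2f2 call was lost in 9 of 21 alternatives, among them library size scaling (adjusted p = 0.07) and the removal of control 5 (0.055) or, in turn, of knockout-labelled libraries 1, 4 and 5 (0.062 each). All called genes of both lists are named here, a choice made after their values were seen. Among arterial genes that did not pass, Gja4 (log2 fold change -0.84, edgeR adjusted p = 0.11) and Nrp1 had lower means. Hey1, Sox17, Jag1 and Notch1 had higher ones. Among venous genes that did not pass, Nrp2 and Thbd had higher means, and Flt4 and Ackr1 lower ones. The summed CPM of the arterial list was 1930 to 2380 in controls and 2070 to 2410 in knockout-labelled libraries. That of the venous list was 3910 to 4440 and 2880 to 3390. The largest part of the arterial sum was Nrp1, with means of 850 and 747.8 CPM. For the venous sum it was Flt4, with means of 1682 and 1474 CPM, and neither gene was called. Flt4 is also one of the sinusoidal genes and counts in their sum too. Of 10 sinusoidal genes 8 fell and 2 did not pass (80% called), with sums of 24300 to 27300 and 16700 to 19000 CPM.

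Markers of the bile duct also differed between the groups. Of 7 genes 6 rose and 1 did not pass, 85.7% called against 19.7% of all genes tested. Their summed level was 186 to 266 CPM in controls against 366 to 625 CPM, most of it from Spp1. Epcam rose from 6.48 to 14.3 CPM and no library was at 0 for Epcam, Krt19 or Krt7. The rise of Epcam was 2.2-fold (edgeR adjusted p = 0.00012). Of 12 hepatocyte genes 3 fell and 9 did not pass (25% called), with sums of 528 to 1980 and 499 to 1150 CPM. Of 10 stellate cell and fibroblast genes 2 rose and 8 did not pass (20% called). Their sums were 146 to 235 and 215 to 315 CPM. Among 6 smooth muscle genes 1 rose and 5 did not pass (16.7% called), with sums of 48.9 to 87.1 and 62.8 to 99.7 CPM. The shares of the stellate and smooth muscle lists are near that of all genes. In edgeR 0 of 8 macrophage, 0 of 7 lymphocyte and 0 of 3 tested platelet genes passed (1, 2 and 0 at an unadjusted p under 0.05, and 0 in each list with DESeq2 and with limma-voom), and their sums overlapped between the groups (412 to 1230 and 381 to 928 CPM for macrophages). The part of these cells in the values of the ephrin and Eph genes was not tested.

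After the mean of each group was taken off, the log2 CPM of 10163 other protein-coding genes of at least 5 CPM were compared with those of Efnb2 and Ephb4 over the 10 libraries, as a description. The 5 genes most like Efnb2 were Top3b, Oxsr1, Fgfr1op, Usp11 and Ptgfrn, with Pearson r from 0.92 to 0.95. Of these Ptgfrn also rose (log2 fold change 0.83, edgeR adjusted p = 0.004). The 5 most like Ephb4 were Orc3, Slc38a9, Rnf11, Efr3a and Fbxl4, with r from 0.93 to 0.97. Of these Rnf11 rose (0.15, edgeR adjusted p = 0.028), a call lost in 9 of 21 alternatives. Its edgeR adjusted p was 0.052 to 0.089 when controls 2 and 3 and knockout-labelled libraries 1, 2 and 3 were left out in turn. Fbxl4 fell (-0.37, edgeR adjusted p = 0.0018). That call was lost with limma on log2(TPM + 1) and on log2(TPM + 0.1) (adjusted p = 0.054 and 0.056). All points come from the same 10 libraries, so the genes share depth and scaling. Each set of 5 holds the highest of 10163 values of r over 10 libraries. Values this high can arise by selection alone, and none was tested.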

How the data were processed

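RNA of mouse liver endothelial cells was sequenced in 5 libraries labelled Alk1-HEC-KO and 5 controls, grouped by their titles. Per the submitters' processing notes, Trim Galore 0.6.4, kallisto 0.4.6 and the build GRCm38.p6 were used. In the deposited files are expected counts, which need not be whole, and deposited TPM per gene. The step from transcripts to genes is not given in the sources used here. Of 55385 identifiers 55144 matched GENCODE M21, all 10 family members among them.

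Expected counts were rounded and fitted in edgeR 4.0.16 under R 4.3.3 (filterByExpr with a minimum count of 10, TMM, robust quasi-likelihood fit on genotype, Benjamini-Hochberg over 15043 genes, threshold 0.05). Standard errors are the log2 fold change over the root of the F statistic. The procedure was tested on simulated data. Depth was nearly equal between libraries. Precision did not follow counts alone. Efnb1, at 305.1 CPM in controls, had an SE of 0.09, and Efna1, at 160.7 CPM, had 0.07. Replicates all differed beyond sampling noise (chi-square per degree of freedom from 11.46). Members, lists and motifs were chosen with earlier results of these data known. The named genes are all family members, Acvrl1, Mcam, up to 4 called genes per pathway list, markers a result turns on, and the 5 genes most like Efnb2 and Ephb4. Alternatives are DESeq2 1.42.0, limma 3.58.1 (voom and log2 TPM), other scalings and filters, offsets for transcript length, the replicate block, and libraries left out.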

Additional observations from a re-analysis of the deposited data

Results flagged for a closer look

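In 30 groups of 5 libraries (15 family genes in each of 2 groups), 2 had a library whose gap to the nearest of the others exceeded Dixon's 95% critical value of 0.71 for 5 samples, and chance flags about 1 in 20 such groups. Ephb1 was at 11.38 CPM in knockout-labelled library 5, against 13.83 to 14.71 CPM in the other 4. Without that library its log2 fold change was 4.51. Ephb3 was at 0.515 CPM in control 2, 12 counts, against 0.168 to 0.225 CPM or 4 to 5 counts in the other controls.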

How the results depend on the processing

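For 60 genes under 21 alternatives, 1211 of 1257 values kept their direction and side of the threshold, 30 lost the call, 6 gained it and 10 changed sign, none of the 10 in an ephrin or Eph gene or in a called gene. Those were Rac1 (0.0503 in both), Cdc42 (0.046 in both) and Usp11 (0.022 and 0.0328) with limma on log2(TPM + 1) and log2(TPM + 0.1), and Top3b with a library left out (-0.0143 to 0.0576). Efnb1, Efnb2 and Ephb1 passed in all 21. The number of the 10 genes called higher was 4 (4 to 4 with a library left out), and that called lower was 1 (1 to 1) but 0 with transcript length offsets, limma on log2(TPM + 1) or log2(TPM + 0.1), and without controls 4 and 5. Reverse signalling calls were 2 (2 to 2 with a library left out) and 1 with length offsets or either log2 TPM fit. Forward signalling calls were 11 (8 to 10 with a library left out), and 7 without controls 4 and 5, where fewer samples were fitted. Shedding and turnover calls were 1, and 2 with no filter or without control 1 or control 5 (1 to 2 with a library left out). The cause of these changes was not tested. Over all genes, calls fell from 2959 to 1940 without controls 4 and 5.

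With the replicate number as a block the call of Efna1 was lost (edgeR adjusted p = 0.057) and Epha2 passed (0.23, edgeR adjusted p = 0.05), and 4 genes were called higher and 1 lower. The labels do not say that the numbers pair libraries: the correlation of same-numbered libraries, after group means were taken off, ran from -0.196 to 0.35, and 1 of 5 controls correlated best with its own number. Counts below about 20 per library limit Efna5, Ephb2, Ephb3 and the control level of Ephb1.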
